A study of Mus musculus with 5 samples.

Results

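Genes of amino acid uptake, serine and one-carbon synthesis and polyamine metabolism were examined in ILC2s of mouse lung. ILC2s, the group 2 innate lymphoid cells, live in tissues, lack antigen receptors and make type 2 cytokines. The set lists 34 genes in 8 steps, given by symbol and chosen with earlier results of these data known. Of these, 31 had a probe set that the platform annotation pairs with 1 symbol only, among 22180 genes on the array that did, and the brightest such probe set stood for each gene. The cells came from 2 groups of adult males that had received no challenge: 2 arrays of IL-33 knockout mice and 3 arrays of wild-type mice, each a biological replicate per the labels. All animals were naive and both groups had the same tissue and cell type. The knockout allele, the strain, the age in weeks, the gates by which cells were sorted and any pooling of animals are not stated in the labels. Sms, spermine synthase, shares its probe set with a pseudogene symbol and was left out, and Amd1 and Pycr1 were not analysed here.

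Proliferating and cytokine-secreting lymphocytes take up amino acids through membrane carriers of the solute carrier families. Serine made from a glycolytic intermediate donates carbon to the folate cycle, which feeds nucleotide synthesis in cytosol and mitochondria. Arginase turns arginine into ornithine, and ornithine is the start of the polyamines putrescine, spermidine and spermine. Lung ILC2s are known for steady expression of arginase 1. Many of these genes are known targets of ATF4, the transcription factor of the integrated stress response, which is translated when amino acids are short.

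Signals are log2 probe-set values, with array medians between 4.29 and 4.33 and upper quartiles between 5.57 and 5.73. Il33 read 3.79 and 3.95 in knockout arrays, against 3.32 to 3.39 in wild-type arrays, near the floor in both, so it does not check the genotype. The cells carried ILC2 markers, of which 12 of 14 were measured, averaging 8.47 and 8.56 in knockout arrays, against 8.55 to 8.71 in wild-type arrays. The 7 of 10 T cell markers measured averaged 5.10 and 5.06 in knockout arrays, against 5.12 to 5.16 in wild-type arrays, and macrophage and dendritic cell markers 3.84 and 3.83 against 3.59 to 4.0. The 11 lung epithelium markers were on average higher in both knockout arrays, at 5.58 and 4.86, against 4.45 to 4.60 in wild-type arrays. So were the 8 endothelium markers, at 5.38 and 5.64, against 5.02 to 5.15 in wild-type arrays, and the 7 mast cell and eosinophil markers, at 4.80 and 4.85, against 4.48 to 4.63 in wild-type arrays. Knockout replicate 2 carried an Xist signal of 7.91 although its label says male, against 3.10 in knockout replicate 1 and 2.35 to 3.10 in wild-type arrays. For that reason each knockout array is described apart. In bulk RNA, a gene used by fewer cells and a gene used less per cell cannot be told apart.

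The members ran from bright to dim against the body of the array. On all 5 arrays, 15 of the 31 lay above the upper quartile of all probe sets, and 5 lay below the array median (Psat1, Asns, Bcat1, Slc7a11 and Slc1a4). Of the 41345 probe sets behind these quartiles, 16010 had no symbol. The dimmest 25% of genes reached a mean of 3.56, above the lower quartiles of all probe sets, at 3.24 to 3.27. The share of all genes above the upper quartile was not counted. Slc7a11, which encodes the cystine carrier of the cystine-glutamate exchanger, was below the lower quartile on all 5 arrays and was left out of the test as dim. The other 30 were tested among 16635 genes with limma. None of the 30 passed an adjusted p of 0.05, where 0% of all genes tested passed, and the members' adjusted p ran from 0.415 to 0.986. At an unadjusted p below 0.05 there were 2 members higher in knockout, Phgdh and Mthfd2, against a background of 5.05%, and 1 lower, Aldh18a1, against 2.59%.

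Of the 30 members, both knockout arrays exceeded every wild-type array for 6, Sat1, Oaz1, Phgdh, Mthfd2, Slc7a1 and Slc1a4, where 11.6% of all genes did. Both lay below for 1 member, Aldh18a1, where 6.32% of all genes did. The median difference of the 30, knockout minus wild type, was 0.08 on the log2 scale, beside 0.04 over all genes tested, and 20 of them were above 0, 66.7%, beside 58.5% of all genes. After quantile normalization Oaz1 and Slc7a1 overlapped between the groups, while Odc1, Bcat2 and Slc7a6 did not, where 30.7% of all genes did not.

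**Figure D1:**
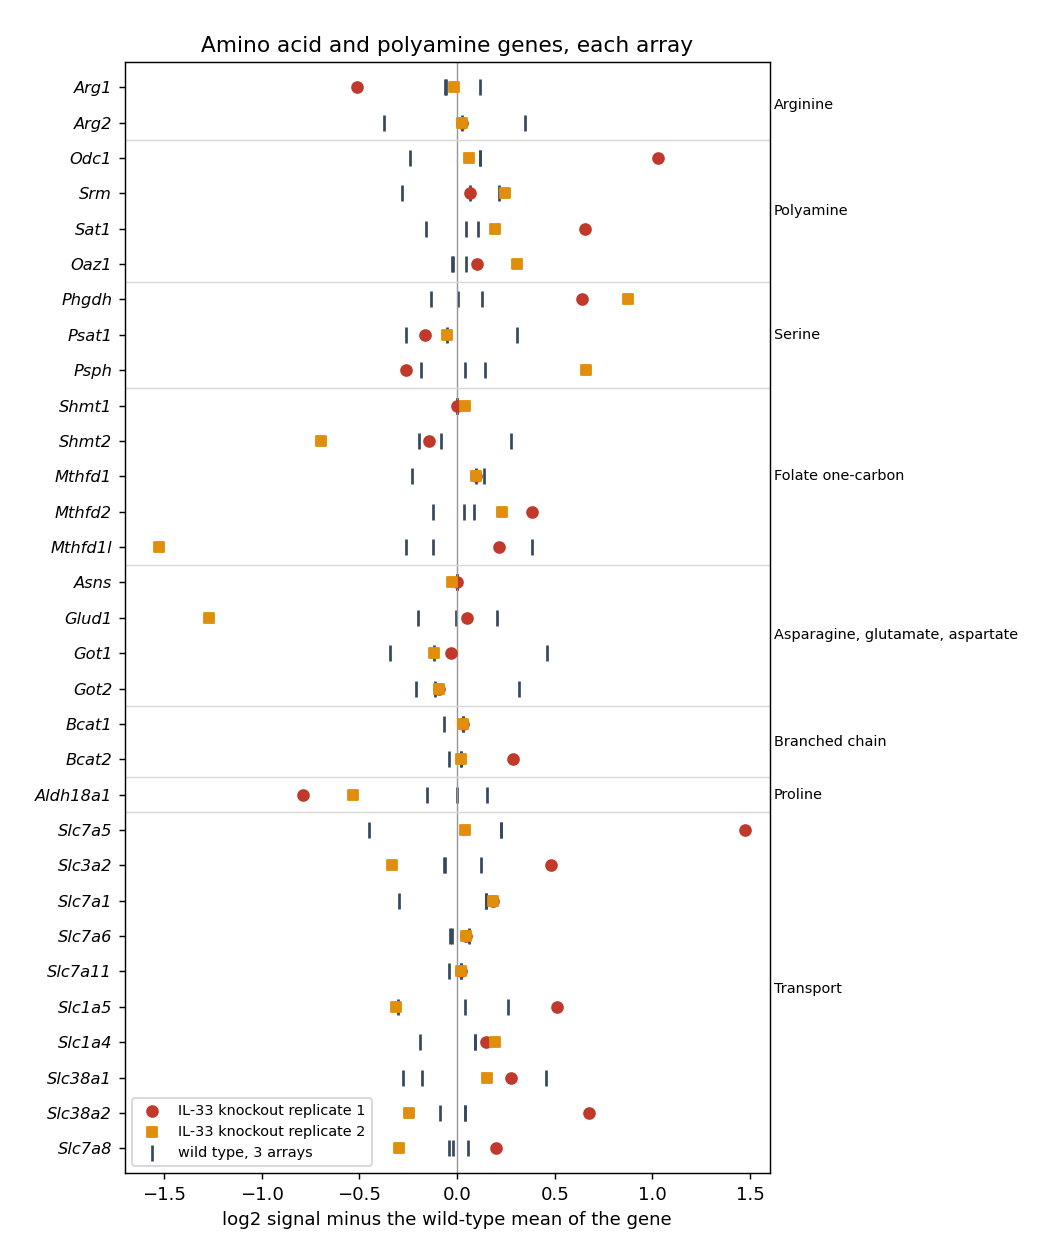
Log2 signal of each of the 31 measured genes minus its wild-type mean (horizontal axis), by metabolic step (rows), for knockout replicate 1 (circles), knockout replicate 2 (squares) and the 3 wild-type arrays (ticks). Phgdh and Aldh18a1 have both knockout arrays on one side of the wild-type ticks, while Slc7a5, Odc1, Mthfd1l and Glud1 have 1 knockout array far from the other.

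Serine synthesis runs through 3 enzymes, and its first one held the difference with the smallest p of the set. Phgdh, phosphoglycerate dehydrogenase, which commits a glycolytic intermediate to serine, had signals of 5.76 and 5.99 in knockout arrays, against 4.98, 5.24 and 5.12 in wild-type arrays. Its groups did not overlap, and each knockout array taken alone was 0.64 and 0.87 above the wild-type mean. The mean was 5.87 ± 0.17 (SD, n = 2) in knockout and 5.11 ± 0.13 (SD, n = 3) in wild type, a difference of 0.76 on the log2 scale (SE 0.12) or 1.69-fold. It did not pass, with a limma adjusted p of 0.415. Psph, the phosphatase of the last step, read 5.54 and 6.46 in knockout arrays, against 5.94, 5.61 and 5.84 in wild-type arrays. Here 1 knockout array was below and the other above all wild-type arrays. Psat1, the aminotransferase between them, was dim, at 3.59 and 3.71 in knockout arrays, against 4.07, 3.50 and 3.71 in wild-type arrays, and its groups overlapped. The pathway's 3 genes therefore did not share a direction, and their mean was 4.96 and 5.38 in knockout arrays, against 4.78 to 5.0 in wild-type arrays.

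The promoters below are shown because Phgdh had that difference and because Asns and Slc7a11, textbook ATF4 targets, were dim on every array. They are RefSeq promoters of build GRCm38.p6, 250 bases before to 50 after the annotated start, printed 5′ to 3′ on the gene's strand. Capitals mark matches to TGATGNAA, the core of the C/EBP-ATF response element, on either strand. The first is chr3:98339920-98340219, minus strand, the next chr6:7693160-7693459, minus strand, and the last chr3:50443564-50443863, minus strand.
Phgdh: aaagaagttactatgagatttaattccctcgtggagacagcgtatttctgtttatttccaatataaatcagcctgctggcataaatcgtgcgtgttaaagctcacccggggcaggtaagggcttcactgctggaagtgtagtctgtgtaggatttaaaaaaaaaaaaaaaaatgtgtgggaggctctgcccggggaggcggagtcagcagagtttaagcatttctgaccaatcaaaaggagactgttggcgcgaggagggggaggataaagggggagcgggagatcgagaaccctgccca
Asns: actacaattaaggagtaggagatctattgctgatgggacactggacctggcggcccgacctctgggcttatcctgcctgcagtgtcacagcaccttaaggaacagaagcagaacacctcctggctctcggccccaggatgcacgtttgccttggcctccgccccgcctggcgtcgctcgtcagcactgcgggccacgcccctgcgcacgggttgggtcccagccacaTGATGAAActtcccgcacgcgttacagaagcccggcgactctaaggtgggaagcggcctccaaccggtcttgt
Slc7a11: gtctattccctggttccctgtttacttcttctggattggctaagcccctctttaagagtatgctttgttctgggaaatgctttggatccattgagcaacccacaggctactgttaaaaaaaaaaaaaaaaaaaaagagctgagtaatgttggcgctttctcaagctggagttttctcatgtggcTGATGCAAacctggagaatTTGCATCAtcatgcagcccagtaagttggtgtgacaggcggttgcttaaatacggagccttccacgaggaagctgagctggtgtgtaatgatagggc

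A TGATGNAA match began at base 228 of the Asns window, and Slc7a11 had 2 matches, beginning at bases 185 and 204 on opposite strands. The Phgdh window held none, which says only that these letters are not in these 300 bases. Of the 31 measured members, 25 had a promoter in the RefSeq table. The motif was held by 4 of them, Asns, Got1, Slc1a4 and Slc7a11, 16%, beside 4.51% of 27025 genes with a promoter. Among the tested genes with a promoter it was 3.18%, though Slc7a11 itself was not tested. The set holds known ATF4 targets, so it was not chosen independently of this element. The E-box CACGTG, also searched on both strands, was found in 1 of the 25, Aldh18a1, which is 4%, beside 8.09% of all genes with a promoter. No member held both motifs. Arg1, Arg2, Srm, Slc7a5, Slc1a5 and Slc38a1 had no entry. A match describes the letters and is not evidence of binding.

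In the folate cycle the mitochondrial enzymes pointed different ways. Mthfd2, the mitochondrial methylenetetrahydrofolate dehydrogenase that is induced in activated lymphocytes, was at 4.95 and 4.80 in knockout arrays, against 4.60, 4.44 and 4.65 in wild-type arrays. Both knockout arrays were above every wild-type array, by a difference of means of 0.31 (SE 0.10), with limma's adjusted p at 0.576. Shmt2, the mitochondrial serine hydroxymethyltransferase that hands serine carbon to folate, read 7.16 and 6.60 in knockout arrays, against 7.22, 7.58 and 7.11 in wild-type arrays. Only knockout replicate 2 was below the wild-type range. Mthfd1l, which releases formate from mitochondria, had 6.05 and 4.31 in knockout arrays, against 5.58, 6.22 and 5.72 in wild-type arrays. Its difference of -0.65 (SE 0.61) came from knockout replicate 2, at -1.53 from the wild-type mean, whereas replicate 1 lay within the wild-type range.

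The cytosolic enzymes of this cycle overlapped between the groups. Mthfd1, the trifunctional cytosolic enzyme, read 5.54 on both knockout arrays, against 5.21, 5.58 and 5.54 in wild-type arrays. Shmt1, the cytosolic serine hydroxymethyltransferase, read 4.30 and 4.34 in knockout arrays and 4.30 on all 3 wild-type arrays, a value that knockout replicate 1 shared. Such equal values came with the deposited table, and 5 of the 30 tested members had the same value on both knockout arrays (equal to 9 decimals), as did 14.4% of all genes tested. Where values repeat, the SD understates the spread. Step means were 5.60 and 5.12 in knockout arrays, against 5.38 to 5.62 in wild-type arrays.

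**Figure D2:**
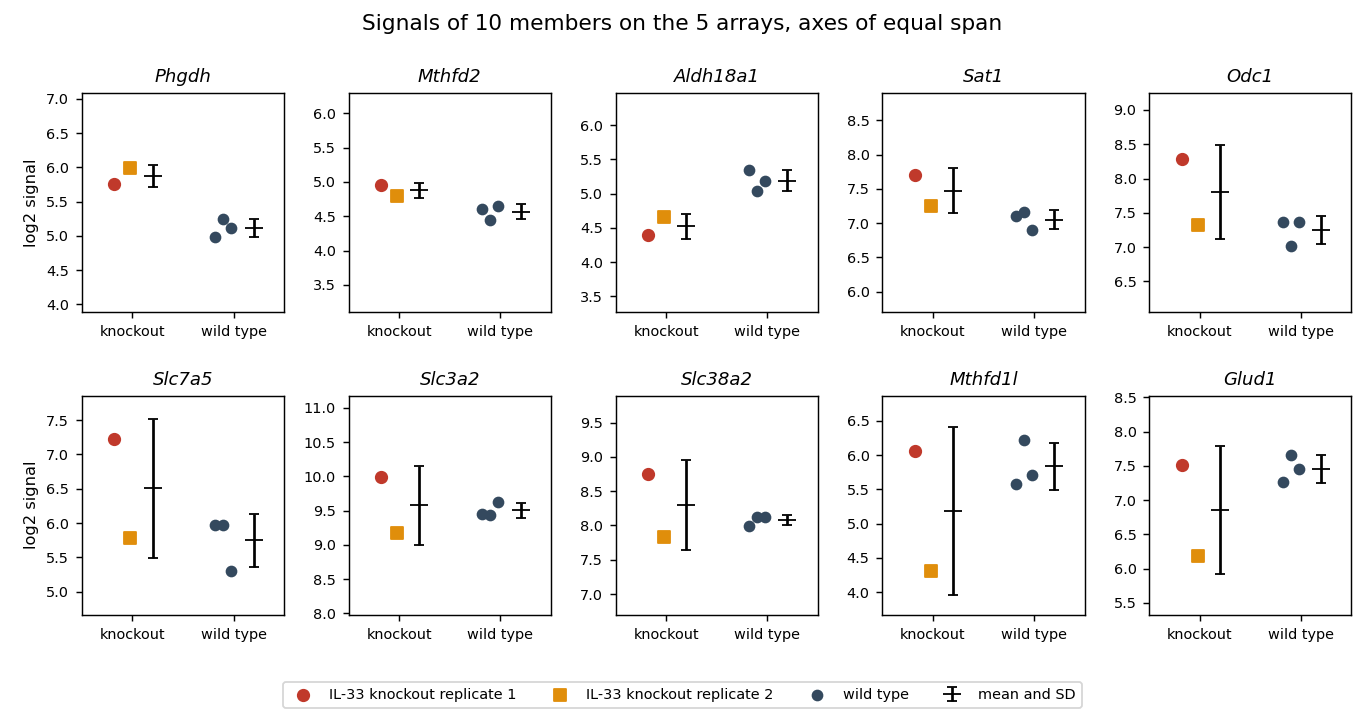
Log2 signal (vertical axes, equal span in every panel) of 10 members in knockout arrays (left; circle for replicate 1, square for replicate 2) and wild-type arrays (right), with mean and SD beside them (n = 2 and n = 3). Phgdh, Mthfd2 and Sat1 have both knockout arrays above the wild-type arrays and Aldh18a1 has both below, while in the other 6 panels the knockout arrays lie apart from each other.

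Arginine use showed no common direction. Arg1, arginase 1, which makes ornithine in the cytosol, was bright on every array, at 9.57 and 10.07 in knockout arrays, against 10.20, 10.02 and 10.02 in wild-type arrays. Knockout replicate 1 was below the wild-type range by itself and replicate 2 was within it, and the difference of -0.26 (SE 0.18) had an adjusted p of 0.623 with limma. Arg2, the mitochondrial arginase, read 4.13 on both knockout arrays, against 4.13, 4.45 and 3.73 in wild-type arrays.

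All 4 polyamine genes measured had a difference above 0, as did 58.5% of all genes tested. Odc1, ornithine decarboxylase, which makes putrescine, was at 8.28 and 7.32 in knockout arrays, against 7.37, 7.01 and 7.37 in wild-type arrays. Knockout replicate 1 was 1.03 above the wild-type mean and replicate 2 was 0.06 above it, inside the wild-type range. Sat1, the acetyltransferase that marks spermidine and spermine for export or breakdown, read 7.71 and 7.25 in knockout arrays, against 7.10, 7.16 and 6.89 in wild-type arrays. Both knockout arrays were above the wild-type range, with a difference of 0.42 (SE 0.18). Oaz1, ornithine decarboxylase antizyme, which sends that enzyme to the proteasome, was at 9.63 and 9.83 in knockout arrays, against 9.50, 9.50 and 9.57 in wild-type arrays. The groups did not overlap and the difference was 0.20 (SE 0.08). Srm, spermidine synthase, read 6.96 and 7.14 in knockout arrays, against 7.11, 6.96 and 6.61 in wild-type arrays, with overlap. Adjusted p was 0.623 with limma for Odc1, Sat1 and Oaz1 alike and 0.729 for Srm. The mean of the 4 was 8.14 and 7.88 in knockout arrays, against 7.61 to 7.77 in wild-type arrays.

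**Figure D3:**
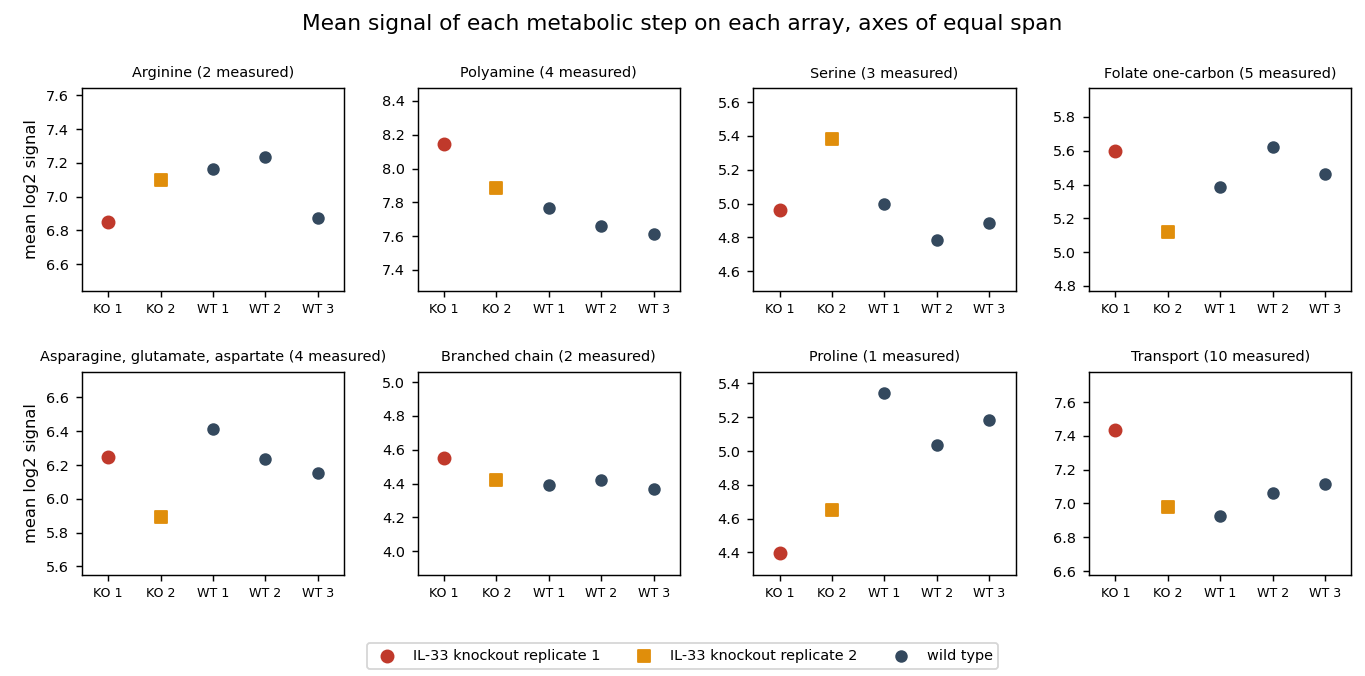
Mean log2 signal of the measured members of each step (vertical axes, equal span) on knockout replicates 1 and 2 and on the 3 wild-type arrays. The polyamine mean lies above the wild-type arrays on both knockout arrays, at 8.14 and 7.88, though Odc1 and Srm each overlapped between the groups. The 1 proline gene lies below on both, while the transport mean is high on knockout replicate 1 only, at 7.43.

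Among amino acid carriers, Slc7a5, Slc3a2, Slc1a5, Slc38a2 and Slc7a8 each had a wider distance between the knockout arrays than between the genotype means. Slc7a5, the LAT1 light chain that imports leucine and other large neutral amino acids, read 7.22 and 5.79 in knockout arrays, against 5.97, 5.97 and 5.30 in wild-type arrays. Replicate 1 was 1.48 above the wild-type mean, and replicate 2 was 0.04 above it and inside the range, so the difference of 0.76 (SE 0.54) is that of 1 array. Slc3a2, the CD98 heavy chain that LAT1 needs to reach the membrane, was at 9.99 and 9.17 in knockout arrays, against 9.44, 9.44 and 9.63 in wild-type arrays. Knockout replicate 1 was above all wild-type arrays and replicate 2 below all of them, leaving a difference of 0.07 (SE 0.28).

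The same placing held for a further 3 carriers. Slc1a5, the glutamine exchanger ASCT2, read 8.57 and 7.75 in knockout arrays, against 7.76, 8.10 and 8.32 in wild-type arrays. Slc38a2, the sodium-coupled carrier SNAT2, read 8.76 and 7.83 in knockout arrays, against 7.99, 8.12 and 8.12 in wild-type arrays. Slc7a8, the LAT2 light chain, another partner of CD98, was at 11.24 and 10.75 in knockout arrays, against 11.00, 11.02 and 11.10 in wild-type arrays. For each of them knockout replicate 1 was higher and replicate 2 lower than every wild-type array, replicate 2 of Slc1a5 only just. The share of all genes with this joint placing was not counted, so it cannot be called particular to carriers. Some genes outside the set, such as Eprs, Rars, Gclc and Rptor, had it as well. The differences of means of the 3 carriers were 0.10, 0.22 and -0.05, each smaller than its SE of 0.33, 0.31 and 0.17. The second probe set of Slc1a5, which was dimmer, read 5.56 and 5.47 in knockout arrays, against 5.19, 5.33 and 5.47 in wild-type arrays, and did not show replicate 2 below the wild-type range.

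The other 5 carriers did not show this placing, nor did Slc7a5, whose replicate 2 was within the wild-type range. Slc7a1, the cationic carrier CAT1 that brings in arginine, read 6.69 on both knockout arrays, against 6.21, 6.66 and 6.66 in wild-type arrays. That is no overlap, but by a margin smaller than the range of the wild-type arrays. Slc1a4, the neutral carrier ASCT1, was dim and also without overlap, at 3.91 and 3.96 in knockout arrays, against 3.57, 3.86 and 3.86 in wild-type arrays. Slc38a1, the SNAT1 carrier, read 9.07 and 8.95 in knockout arrays, against 8.52, 8.62 and 9.25 in wild-type arrays, and Slc7a6, the y+LAT2 light chain, read 6.19 on both knockout arrays, against 6.11, 6.12 and 6.20 in wild-type arrays. Slc7a11 was at 2.71 on both knockout arrays, against 2.64, 2.71 and 2.71 in wild-type arrays. Over the 10 carriers, with the untested Slc7a11 among them, knockout replicate 1 was above all wild-type arrays for 7 and below for 0. Replicate 2 was above for 2 and below for 4. Over all genes tested, the shares were 31.1% above and 16.6% below for replicate 1, and 30.4% above and 23.6% below for replicate 2.

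All 4 genes of asparagine, glutamate and aspartate metabolism had a difference below 0, where 58.5% of all genes tested were above 0. That of Asns was only -0.014, and those of Glud1, Got1 and Got2 changed sign as single arrays were left out. Glud1, glutamate dehydrogenase, which releases ammonia and feeds the citric acid cycle, read 7.51 and 6.19 in knockout arrays, against 7.26, 7.66 and 7.45 in wild-type arrays. Replicate 2 stood at -1.27 from the wild-type mean and replicate 1 was within the range, so the difference of -0.61 (SE 0.45) again rests on 1 array. Got1, the cytosolic aspartate aminotransferase, read 5.57 and 5.48 in knockout arrays, against 6.06, 5.48 and 5.26 in wild-type arrays. Got2, its mitochondrial counterpart, read 7.83 on both knockout arrays, against 8.25, 7.72 and 7.82 in wild-type arrays, and a dimmer second probe set differed the other way, by 0.17 against -0.09. Both genes overlapped between genotypes. Asns, asparagine synthetase, was at 4.09 and 4.06 in knockout arrays and at 4.09 on all 3 wild-type arrays.

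Of the branched-chain and proline enzymes, 1 had no overlap, the only proline gene measured. Over all genes tested, 6.32% lay lower in knockout without overlap. Aldh18a1, the synthase that makes the proline and ornithine precursor from glutamate, was at 4.40 and 4.65 in knockout arrays, against 5.34, 5.03 and 5.19 in wild-type arrays. It was the member with both knockout arrays below all wild-type arrays, standing at -0.79 and -0.53 from the wild-type mean. The mean was 4.53 ± 0.18 (SD, n = 2) in knockout and 5.19 ± 0.15 (SD, n = 3) in wild type, a difference of -0.66 (SE 0.14), with a limma adjusted p of 0.461. Bcat2, the mitochondrial branched-chain aminotransferase, read 5.46 and 5.19 in knockout arrays, against 5.13, 5.19 and 5.19 in wild-type arrays. Bcat1, the cytosolic one, was dim at 3.65 on both knockout arrays, against 3.65, 3.65 and 3.55 in wild-type arrays.

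Taken one at a time, the knockout arrays gave unlike pictures. Knockout replicate 1 was above all wild-type arrays for 13 of the 30 members, beside 31.1% of all genes, and below for 3, beside 16.6%. Knockout replicate 2 was above for 9, beside 30.4%, and below for 9, beside 23.6%. Directly between the knockout arrays, 8 of 30 members were over 0.5 log2 units higher in replicate 1, beside 14.8% of all genes tested, and 1 member, Psph, was that much higher in replicate 2, beside 9.44%. The distance was over 1 unit for Mthfd1l, Slc7a5 and Glud1, at 1.74, 1.44 and 1.32, as it was for 6.91% of all genes. With 1 array on each side these distances have no replicate check. Marker lists also differed between the knockout arrays. Of the 11 lung epithelium markers, 7 were higher in replicate 1, most of all Scgb1a1 (8.81 against 5.93) and Bpifa1 (8.52 against 3.22), 3 were higher in replicate 2 (Epcam, Krt18 and Sftpb) and 1 was equal. Of the 8 endothelium markers, 2 were higher in replicate 1 and 6 in replicate 2, among them Cdh5 (6.26 in replicate 1 and 7.14 in replicate 2) and Cldn5 (5.95 and 6.68). Xist was high in replicate 2. The part of these signals in the members' values was not tested.

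**Figure D4:**
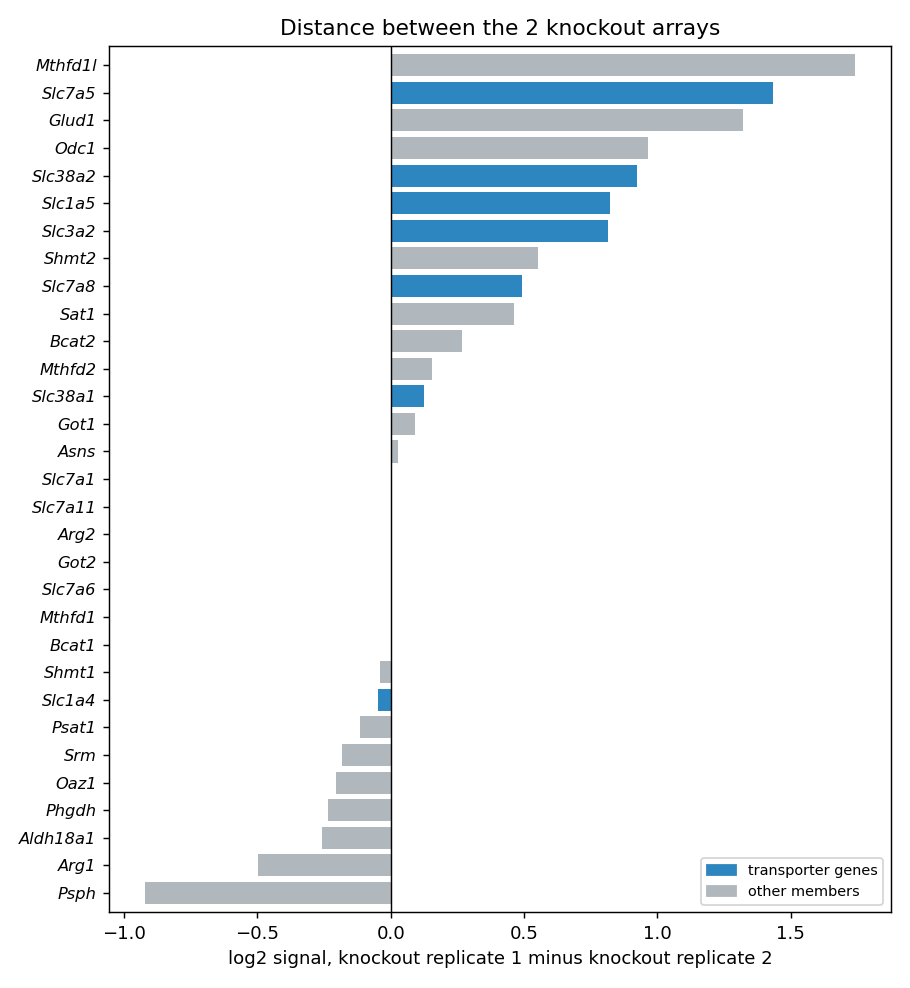
Log2 signal on knockout replicate 1 minus that on knockout replicate 2 (horizontal axis) for the 31 measured members, sorted (rows), with carrier genes in blue. Mthfd1l, Slc7a5 and Glud1 are over 1 unit higher on replicate 1, and Psph stands at -0.92, higher on replicate 2.

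Genes around these steps were counted in 9 further lists, of which 123 of 146 listed genes were tested and 0 passed an adjusted p of 0.05 with limma, with 6 at an unadjusted p below 0.05. Without overlap, 14 of the 123 were higher in knockout and 7 lower, shares near the 11.6% and 6.32% of all genes tested, so these counts are not a result about the lists. In the integrated stress response, 5 of 15 tested genes were higher without overlap, beside 11.6% of all genes, and 1 lower, beside 6.32%. The median difference was 0.20, beside 0.04 over all genes. The mean of the 17 measured genes was 5.84 and 5.51 in knockout arrays, against 5.57 to 5.63 in wild-type arrays. Replicate 1 was thus above the wild-type range and replicate 2 below it. Atf4 itself was at 10.09 and 10.02 in knockout arrays, against 9.54, 9.50 and 9.64 in wild-type arrays. Chac1, a glutathione-degrading ATF4 target, read 4.82 and 4.67 in knockout arrays, against 4.42, 4.39 and 4.26 in wild-type arrays. Cebpb, a transcription factor that can pair with ATF4, read 5.53 and 5.24 in knockout arrays, against 4.88, 4.43 and 4.58 in wild-type arrays. These 3 were named because their groups did not overlap, so their like placing on both knockout arrays follows from that choice. Their adjusted p with limma was 0.402, 0.468 and 0.514. The 1 lower gene, Eif4ebp1, read 6.20 and 4.63 in knockout arrays, against 6.56, 6.24 and 6.24 in wild-type arrays, with a limma adjusted p of 0.623.

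Aminoacyl-tRNA synthetases, several of them known ATF4 targets, had a median difference below 0. Of 18 tested, 6 had a difference above 0, beside 58.5% of all genes, and the median was -0.19. The mean of the 18 was 6.60 and 6.37 in knockout arrays, against 6.56 to 6.70 in wild-type arrays. Only replicate 2 was below the wild-type range. Without overlap, 3 were lower (Farsa, Sars and Vars), beside 6.32% of all genes, and 0 higher, beside 11.6%. Farsa, a subunit of the phenylalanine enzyme, read 5.84 and 5.78 in knockout arrays, against 6.12, 6.82 and 6.12 in wild-type arrays. Sars, the serine enzyme, read 7.29 and 7.49 in knockout arrays, against 7.50, 7.88 and 7.62 in wild-type arrays. Vars, the valine enzyme, read 7.33 and 6.97 in knockout arrays, against 7.57, 7.35 and 7.35 in wild-type arrays. These 3 were likewise named for their lack of overlap, and each had an adjusted p of 0.623 with limma.

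In the other 7 lists, genes without overlap were few, and their counts stand beside the same 11.6% of all genes higher and 6.32% lower. Slc36a4, a lysosomal and plasma membrane amino acid carrier, was the 1 of 19 other transporters without overlap, at 10.03 and 10.34 in knockout arrays, against 9.20, 9.45 and 8.95 in wild-type arrays. That is a difference of 0.98, with an adjusted p of 0.453. Rragc, a Rag GTPase that reports amino acids to mTORC1, was lower in both knockout arrays, at 4.81 and 3.82, against 5.82, 5.26 and 5.65 in wild-type arrays, with an adjusted p of 0.566. Mlst8 and Flcn, on the same list of 20 tested genes, were 0.21 and 0.06 higher without overlap. In glutamine metabolism, 2 of 8 were higher without overlap, Gpt2 by 0.45 and Gclm by 0.45, the alanine aminotransferase and a subunit of glutathione synthesis. Among arginine and proline genes, Ddah1 was 0.32 and Pycrl 0.40 higher without overlap, of 9 tested. In the further polyamine list, Smox, spermine oxidase, was 0.18 higher, while Dhps and Atp13a2 differed by -0.21 and -0.09, all without overlap. Ggh, which trims folate polyglutamates, was 0.36 higher and the 1 of 14 folate and glycine genes without overlap, and of 10 methionine cycle genes 0 were without overlap. With limma the adjusted p was 0.566 for Ddah1 and 0.623 for each of Mlst8, Flcn, Gpt2, Gclm, Pycrl, Smox, Dhps, Atp13a2 and Ggh.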

How the data were processed

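Trizol-extracted total RNA was biotin-labelled for 5 arrays, per the labels' protocols. The deposited table holds log2 signals of probe sets, made by the authors with RMA and Affymetrix Expression Console according to the submitters' processing notes; versions, settings and genome build are not given there. RMA usually equalises arrays, so a change common to most transcripts would not show. Of 41345 probe sets, 23521 had 1 symbol in the platform annotation, 1814 several and 16010 none.

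Each gene was represented by its brightest probe set, and the dimmest 25% of genes by mean were dropped, leaving 16635. The genotypes were compared over all of these by lmFit and eBayes of limma 3.58.1 (R 4.3.3), with Benjamini-Hochberg adjustment and a threshold of 0.05. The fit was also run on simulated data, with planted changes larger than the mean difference of any member. That run checks that the fit works, not how well it finds differences of the members' size. The number of arrays limits the precision: an exact two-sided permutation test over the 10 splits has p = 0.1 as its smallest value and was not used. Every measured member is named, and of each further list up to 3 genes without overlap, by smallest p, with Eif4ebp1 besides. Members and lists were chosen with earlier results of these data known. Alternatives covered the filter, probe sets per gene, scaling, variance model, weights, replicate block, repeated values and leaving out each array.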

Additional observations from a re-analysis of the deposited data

How the results depend on the processing

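No member passed an adjusted p of 0.05 in any of the 15 alternatives; that of Phgdh ran from 0.103 to 0.793. The count over all genes tested was 0 with every array and ran from 0 to 1072 as single arrays were left out, with 1072 without knockout replicate 1 and 389 without knockout replicate 2, where the spread of a lone knockout array is taken from the wild-type arrays. Members without overlap ran from 7 to 18 in those fits, with 18 without knockout replicate 1, beside 54% of all genes, 16 without knockout replicate 2, beside 47.8%, and 10 without wild-type replicate 3, beside 24.8%. In the other alternatives they numbered 6 to 8, and the median difference of the members ran from 0.03 to 0.13 over all 15.

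Of the 30 differences, 15 kept their sign throughout, among them Phgdh (0.64 to 0.87), Mthfd2 (0.23 to 0.39), Sat1 (0.19 to 0.66), Oaz1 (0.10 to 0.31) and Aldh18a1 (-0.79 to -0.53), and 3 reached 0 in some alternative. The other 12 changed sign. The filters and the variance models leave a difference as it is, so they could not change a sign, and averaging probe sets could do so only for genes with several. Phgdh, Mthfd2, Sat1, Oaz1 and Aldh18a1 did not overlap between the groups. Leaving out an array, the weights or the block could therefore not change their sign, and only the scalings could. Leaving out single arrays gave -0.33 to 0.48 for Slc3a2, -0.31 to 0.51 for Slc1a5, -0.25 to 0.68 for Slc38a2, -0.29 to 0.20 for Slc7a8, -0.26 to 0.66 for Psph, -1.53 to 0.22 for Mthfd1l and -1.27 to 0.052 for Glud1, by way of the knockout arrays, and Slc1a5 was also below 0, at -0.050, without wild-type replicate 1. By way of wild-type arrays alone it gave -0.24 to 0.048 for Psat1, -0.021 to 0.16 for Mthfd1, -0.24 to 0.16 for Got1, -0.20 to 0.066 for Got2 and -0.16 to 0.20 for Arg2. Got2 also read 0.040 when its probe sets were averaged. With the replicate number as a block, Arg2 differed by -0.16 and no call changed, with 0 genes passing. Wild-type replicate 3 is alone in its block there, so the differences equal those of leaving that array out. Deviations of arrays that share a number correlated at -0.05 for replicate 1 and 0.14 for replicate 2. The 2 knockout arrays deviate from their mean by equal and opposite amounts, so these values cannot decide whether the numbers mark pairs. The main fit did not treat the number as a pairing.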
